A study of Mus spretus with 19 samples.

Results

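The 10 genes of hepatic fat synthesis described here were measured in livers from 5 sites of wild mice: the enzymes Pklr, Acly, Acaca, Fasn, Elovl6, Scd1, Gpd1 and Gpam, and the regulators Srebf1 and Thrsp. The 10 symbols were looked up in the gene names of the array files, and all 10 were found, on 15 probes. At least 1 probe of each gene passed the filter on dim spots, so 10 of the 16346 genes and transcripts tested are members. The rule uses the symbols alone and no measured value. The members were, however, chosen with earlier results of these data known, so their counts beside all genes are a description.

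The samples were livers of male Mus spretus, the Algerian mouse, a wild species close to the laboratory mouse, caught at 5 places in southwest Spain. SOL is the Santa Olalla lagoon, labelled unpolluted. PS is the phosphogypsum stacks, and the Domingo Rubio stream was sampled in its lower (DR1), medium (DR4) and upper course (DR6), and these 4 sites are labelled polluted. RNA of 9 mice was pooled per site and measured on 4 one-colour arrays, or 3 for DR6, so the 19 arrays are technical repeats of 5 pools. No treatment, genotype or age is given in the labels, and wild mice carry no defined background.

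Every level below is the log2 of a probe's signal minus the log2 of the 75th percentile of its array, so a level of 0 is as bright as that percentile. A probe's brightness depends on its sequence, and levels are compared between sites for 1 probe, never between genes. A gene was called different between a pair of sites when limma's adjusted p was under 0.05 and the change was at least 2-fold, which is 1 on the log2 scale. Since the arrays of a site share 1 pool, these p-values measure the spread of labelling and hybridization, not how mice of a site differ. Each site also had its own slide and scan, so site and slide cannot be told apart. In bulk liver RNA, fewer hepatocytes and less of an RNA per hepatocyte cannot be told apart either. Array brightness differed: the signal at the 75th percentile was 99.5 on the dimmest array and 285.2 on the brightest, and between 52.0% and 61.5% of spots on an array were well above background. The probes were designed for Mus musculus, and whether sequence differences in these mice changed a probe's signal was not tested.

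In the liver, de novo lipogenesis turns surplus sugar into fat. Pyruvate from glycolysis feeds the mitochondria, which export citrate. Citrate is split to acetyl-CoA, acetyl-CoA is carboxylated to malonyl-CoA, and fatty acid synthase joins these units into palmitate. Palmitate is then elongated and desaturated and is joined to a glycerol backbone as triglyceride. Insulin drives the programme through the transcription factor SREBP-1c, the product of Srebf1, and glucose drives it through ChREBP, the product of Mlxipl. The genes are known to fall on fasting and rise on refeeding with carbohydrate.

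SOL had the highest mean level for 9 of the 10 genes. Scd1, the desaturase, was the exception, with its highest level at DR6. The 9 genes were below SOL at each of the 4 polluted sites, although the sign turned for Acaca at DR4 (0.10) and for Gpam at DR4 (0.037) and DR6 (0.018) under another background correction (normexp), and for Acaca at DR6 (0.13) when its probes were averaged. DR6 was second in 7 of the 10 genes, and PS was lowest in 6. Of the 40 differences from SOL, 38 were negative and 15 were called, 14 of them lower.

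At PS, 6 of the 10 genes were called lower and 0 higher, where 2.18% of all genes were called lower and 2.23% higher. The 6 were Fasn, Acly, Elovl6, Pklr, Gpd1 and Thrsp. The median change of the 10 genes was -1.19 on the log2 scale, beside -0.01 for all genes tested. The arrays of PS and SOL did not overlap for any of the 10 genes, which held for 36.9% of all genes. All 10 had an adjusted p under the threshold at any fold, and all were lower, where 32.8% of all genes passed that limit in either direction. The count of 6 depended on the processing. With normexp it was 4, without Acly and Pklr, and 153 of all genes were called, where 722 were before. With probes averaged it was 5, without Gpd1, and 710 of all genes were called.

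At DR1, 3 genes were called lower and 0 higher, namely Thrsp, Pklr and Gpd1, where 2.55% of all genes were called lower and 3.53% higher. The median change of the 10 genes was -0.77, beside 0.01 for all genes. At DR4, 4 genes were called lower and 0 higher, namely Thrsp, Pklr, Gpd1 and Elovl6, where 5.1% of all genes were called lower and 5.43% higher. The median change there was -0.70, beside -0.05 for all genes. At DR6, Gpd1 was called lower and Scd1 higher, where 2.28% of all genes were called lower and 4.67% higher. The median change there was -0.33, beside -0.0038 for all genes. At DR6 the share of higher calls among all called genes was 67.2%, and 55.8% when arrays were scaled by their median. Without the 2-fold limit, 9 genes passed the adjusted p at DR1 (8 lower, 1 higher), 9 at DR4 (all lower) and 7 at DR6 (6 lower, 1 higher), where 47.7%, 54.9% and 43.9% of all genes passed, and the arrays did not overlap with SOL for 9, 8 and 7 genes, where 35.9%, 52.5% and 46.7% of all genes did not. A small p at these sites is thus common among all genes, and the calls below rest on the fold as well. Gpd1 was the only member called at all 4 sites, and Acaca, Srebf1 and Gpam were called at none. With probes averaged, Acaca was called lower at DR1 as well (-1.15), which made 4 members called there. That average takes in a dim probe, well above background on 0 arrays at DR1 and 1 at SOL.

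**Figure D1:**
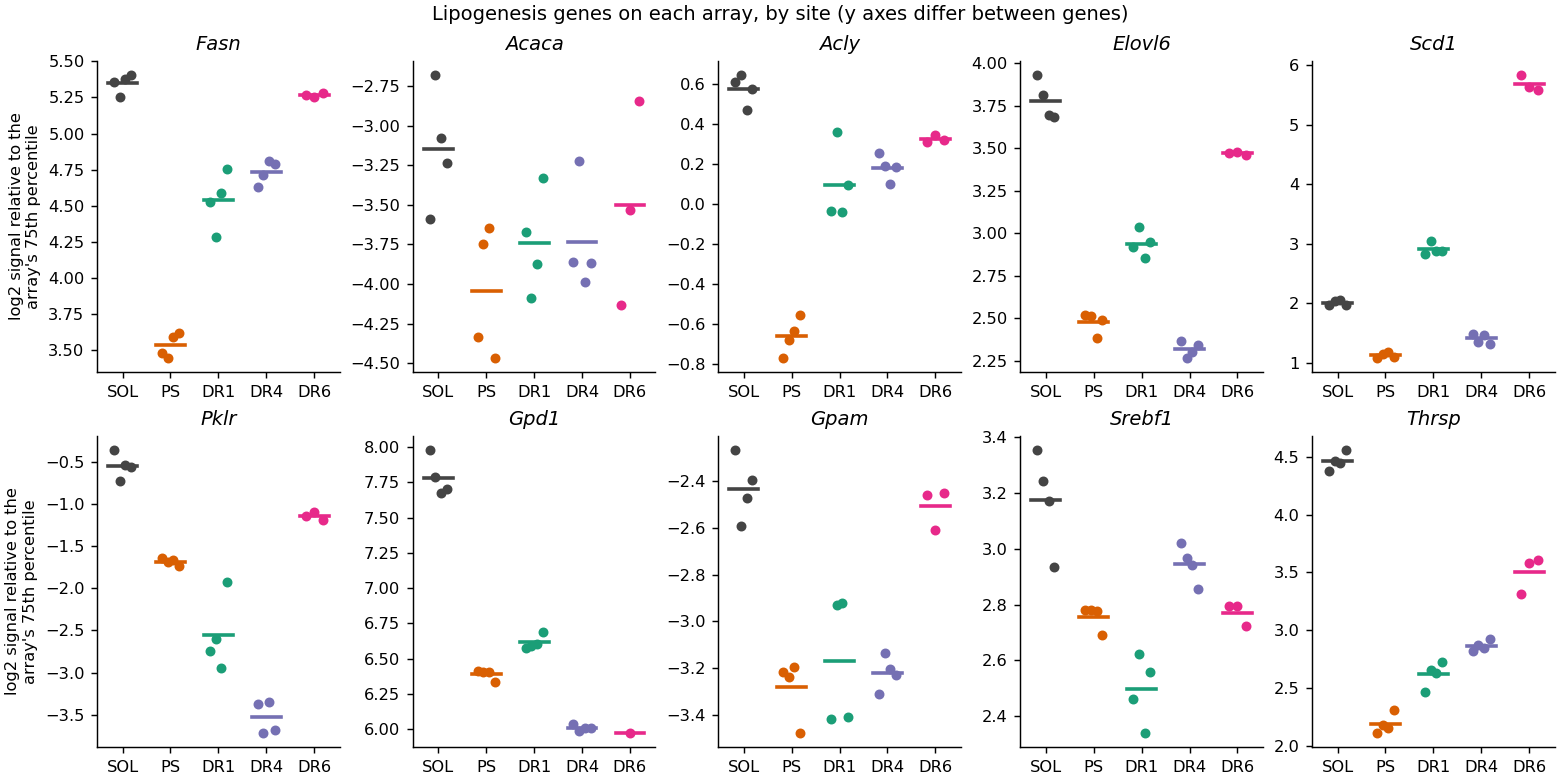
Level of each of the 10 genes on every array, as log2 signal relative to the array's 75th percentile (y axis, separate for each gene), by site (x axis). Points are arrays and bars are site means; SOL holds the highest mean in every panel except Scd1, where the 3 DR6 arrays sit between 5.58 and 5.83.

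**Figure D2:**
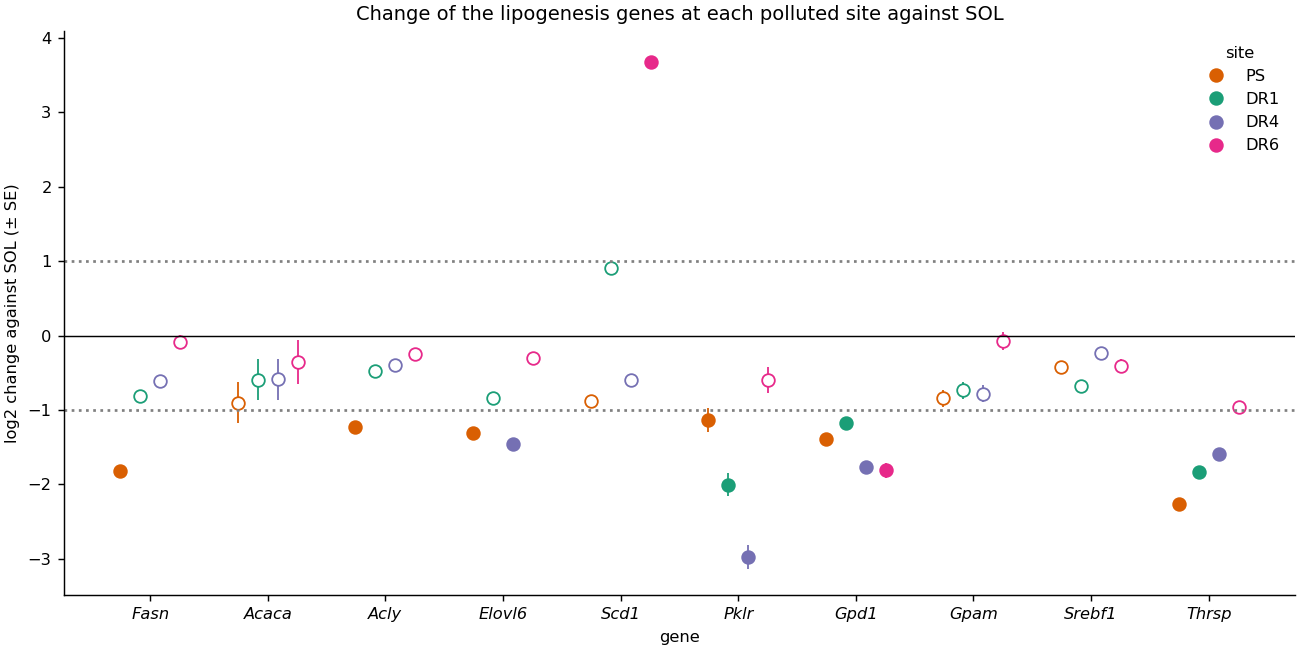
Change of each gene against SOL on the log2 scale (y axis, with the standard error of the limma fit) at PS, DR1, DR4 and DR6; filled circles were called, open circles were not, and dotted lines mark a 2-fold change. Most points lie below 0, Pklr at DR4 is the lowest at -2.98, and Scd1 at DR6 stands alone at 3.68.

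Several of these genes rest on 1 probe, so the stretch of RNA that was read is shown for those with the widest range of levels, with the brighter Fasn probe beside them. Sequences are those of the deposited array files, in lower case from 5′ to 3′, and only the first 30 bases are shown for Fasn and Scd1. The probes of Pklr at chr3:89230912-89231430 and Thrsp at chr7:97292244-97292303 and those of Fasn at chr11:120623236-120623295 and Scd1 at chr19:44448208-44448267 are placed on the mm8 mouse build. Pklr lies on the plus strand and the other probes shown lie on the minus strand. The Pklr probe has 60 bases but spans 519 in the genome, so it joins sequence from neighbouring exons.
Pklr: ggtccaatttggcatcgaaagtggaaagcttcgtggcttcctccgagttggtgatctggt
Thrsp: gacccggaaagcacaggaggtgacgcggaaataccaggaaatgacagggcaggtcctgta
Fasn: gcttgggttttgacttttctgcagctgtca
Scd1: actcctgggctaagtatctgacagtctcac

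Pklr encodes the liver pyruvate kinase, which makes the last step of glycolysis and is a textbook target of ChREBP. Its levels at SOL were -0.36, -0.73, -0.54 and -0.56. The 3 arrays of DR6 read -1.14, -1.10 and -1.19, and those of PS read -1.64, -1.69, -1.67 and -1.74. DR1 read -2.75, -2.60, -2.94 and -1.92, and DR4 read -3.37, -3.71, -3.35 and -3.68. The sites followed each other without overlap from SOL through DR6, PS and DR1 down to DR4, and each step between neighbours had an adjusted p under the threshold, from 9.34e-05 to 0.0182 by limma. The DR4 pool was lower than SOL by 7.90-fold (log2 change -2.98 ± 0.16, SE), rank 35 among 16346 genes from the lowest change. DR1 was 4.01-fold lower and PS 2.20-fold lower, both called, and the change at DR6 was -0.60.

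Of all changes against SOL, that of Pklr at DR4 moved most with the background correction. The normexp fit also adds an offset of 50 to each signal before scaling, and the part of this offset was not tested. With normexp, the changes of Pklr were -0.87 at DR4 (adjusted p = 0.0293 by limma) and -0.52 at PS (adjusted p = 0.664), and both calls were lost. Pklr at DR1 remained past both limits, at -1.04 in that fit, so DR1 rather than DR4 then had the lowest Pklr. The signal was well above background on all 19 arrays.

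Acly encodes ATP citrate lyase, which splits exported citrate to acetyl-CoA. It read 0.61, 0.64, 0.47 and 0.57 at SOL and -0.77, -0.68, -0.64 and -0.56 at PS. The other arrays lay between and did not overlap with SOL or PS, from -0.04 to 0.36 at DR1, 0.10 to 0.25 at DR4 and 0.31 to 0.34 at DR6. PS was the only site called, 2.35-fold below SOL (-1.23 ± 0.079, SE, adjusted p = 2.89e-09 by limma). Its call was lost with normexp, at -0.76. DR6, DR4 and DR1 were below SOL by less than 2-fold, with changes of -0.25, -0.39 and -0.48 and adjusted p-values under the threshold (0.0255, 0.000448 and 9.74e-05 by limma). Neighbours in the order of those 3 sites did not differ at the threshold. The Acly probe that was used lies at chr11:100293293-100293351, minus strand. A second Acly probe, matched to a cDNA clone, was well above background on 0 of 19 arrays and was not used.

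Acaca encodes acetyl-CoA carboxylase 1, which makes malonyl-CoA, the committed step of fatty acid synthesis. It was measured poorly: its brighter kept probe was well above background on 13 of 19 arrays. That probe read -3.59, -2.68, -3.08 and -3.23 at SOL and -4.33, -3.74, -3.64 and -4.47 at PS. The means of DR1, DR4 and DR6 were -3.74, -3.74 and -3.50, and the arrays of these 3 sites overlapped with SOL. The change at PS was -0.90 ± 0.28 (SE, adjusted p = 0.0189 by limma), short of 2-fold, and reached -1.05, -1.002 and -1.04 and a call without SOL replicate 1, PS replicate 2 or PS replicate 3. With normexp the change of Acaca at PS was -0.088. The changes at DR1, DR4 and DR6 were -0.60, -0.59 and -0.36, with adjusted p-values of 0.0871, 0.0817 and 0.355 by limma. With both kept probes averaged, the change of Acaca at DR1 was -1.15 (adjusted p = 0.00114) and was called. The second of these probes was well above background on 0 arrays at DR1 and 1 at SOL.

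The Acaca probes lie at different places of the gene and did not give 1 answer. The kept probe described above spans chr11:84096692-84109107 on the plus strand, across introns. The other kept probe, at chr11:84158205-84162205, was well above background on 5 of 19 arrays and passed the filter only through DR4. These arrays were 1 at SOL, 0 at PS, 0 at DR1, 3 at DR4 and 1 at DR6. The means of that probe differed from SOL by -1.09 at PS, -1.71 at DR1, 0.33 at DR4 and 0.62 at DR6. Its differences at PS and DR1 thus compare signals near background. One more probe, well above background on 3 arrays, did not pass the filter, and its means differed from SOL by -0.05 at PS, 0.08 at DR1, 0.36 at DR4 and 0.42 at DR6. A further probe at chr11:84217052-84217111 carries a transcript identifier, ENSMUST00000103201, in the gene names used here and the name Acaca only in an older design file, so the rule did not take it. That probe was well above background on all 19 arrays, with changes of -0.89 at PS, -0.85 at DR1, -1.10 at DR4 and -0.66 at DR6, all with an adjusted p under the threshold (9.60e-05, 9.08e-05, 3.82e-06 and 0.00189 by limma) and called at DR4.

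**Figure D3:**
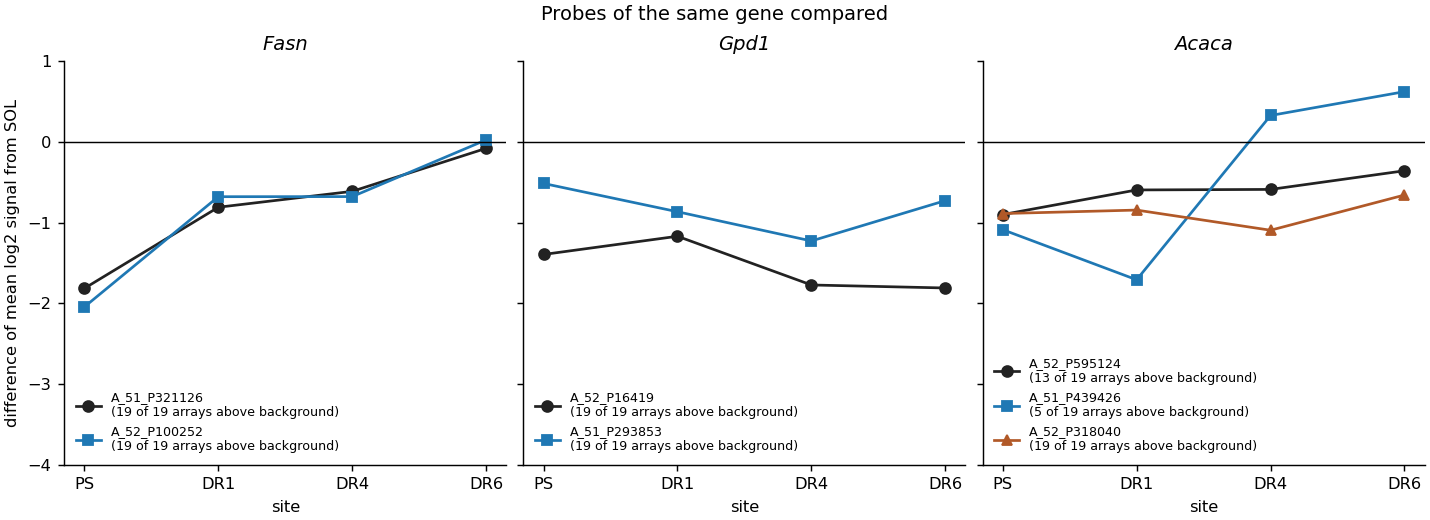
Difference of the site mean from SOL in log2 signal (y axis) at the 4 polluted sites for probes of Fasn, Gpd1 and Acaca that passed the filter. The key gives the number of arrays on which a probe was well above background. The Fasn probes run together, the Gpd1 probes differ in size, and the Acaca probes differ in size at DR1 and in sign at DR4 and DR6; the Acaca probe drawn with triangles is the one named by a transcript identifier.

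Fasn encodes fatty acid synthase, which builds palmitate. It read 5.35, 5.25, 5.38 and 5.40 at SOL, and DR6 overlapped with it at 5.27, 5.25 and 5.28. DR4 read 4.63, 4.71, 4.81 and 4.79, and DR1 read 4.53, 4.28, 4.59 and 4.75. PS read 3.47, 3.44, 3.59 and 3.62. PS was thus clear of every other site, while DR1 and DR4 overlapped. Fasn was 3.52-fold below SOL at PS (-1.82 ± 0.080, SE, adjusted p = 2.58e-11 by limma). It was 1.75-fold lower at DR1 and 1.53-fold lower at DR4, both with an adjusted p under the threshold and neither called. With normexp the change of Fasn at DR4 was -1.05 (adjusted p = 0.0421) and was called, and that at DR1 was -0.52 and no longer passed (adjusted p = 0.503). At DR6 the change was -0.08 with a 95% interval from -0.26 to 0.10 (adjusted p = 0.482). A second Fasn probe, at chr11:120622442-120622501, gave changes of -2.05, -0.68, -0.68 and 0.02 at PS, DR1, DR4 and DR6.

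Elovl6 encodes the elongase that adds a 2-carbon unit to palmitate, and its probe lies at chr3:129630352-129630411, plus strand. It read 3.93, 3.81, 3.70 and 3.68 at SOL and 3.47, 3.48 and 3.46 at DR6. DR1 lay between 2.85 and 3.03, PS between 2.38 and 2.52, and DR4 between 2.27 and 2.36. No neighbours in this order overlapped. Elovl6 was lowest at DR4, 2.75-fold below SOL (-1.46 ± 0.059, SE, adjusted p = 2.80e-12 by limma), and 2.47-fold lower at PS. The step from PS to DR4 was small, 0.16 ± 0.059 (adjusted p = 0.0362). The changes of -0.84 at DR1 and -0.31 at DR6 were not called.

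Scd1 encodes stearoyl-CoA desaturase 1, which puts the first double bond into stearate and palmitate and is the main desaturase of mouse liver. It read 1.98, 2.03, 2.05 and 1.96 at SOL. It was lower at DR4, with 1.49, 1.36, 1.47 and 1.32, and at PS, with 1.08, 1.14, 1.18 and 1.09. It was higher at DR1, with 2.82, 3.05, 2.88 and 2.87, and at DR6, with 5.83, 5.64 and 5.58. The 5 sites did not overlap at any step of this order, and the range from DR6 to PS was 4.56 on the log2 scale, the widest of the 10 genes.

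Scd1 was 12.8-fold higher at DR6 than at SOL (3.68 ± 0.070, SE, adjusted p = 5.07e-16 by limma), and 12th of 16346 genes counted from the largest rise. Across the 10 alternatives of processing this change lay between 3.59 and 3.68, and it was called under each. The rises and falls at the other sites were under 2-fold: 1.87-fold higher at DR1, 1.51-fold lower at DR4 and 1.84-fold lower at PS. Each had an adjusted p under the threshold, and the change at DR1 reached 1.07 with normexp. Scd1 has only 1 probe on the array, and it was not saturated on any array. Scd2, a related desaturase more typical of other tissues, did not share this pattern: its changes were -0.81 at PS, 0.10 at DR1, 0.26 at DR4 and 0.27 at DR6, and none was called. Scd2 was singled out after its values were seen.

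Gpd1 encodes the cytosolic glycerol-3-phosphate dehydrogenase, which makes the glycerol backbone from a glycolytic intermediate. Its brighter probe, at chr15:99552937-99552996 on the plus strand, read 7.98, 7.78, 7.67 and 7.70 at SOL. It read 6.58, 6.59, 6.60 and 6.69 at DR1 and 6.41, 6.40, 6.40 and 6.33 at PS. DR4 read 6.04, 5.99, 6.01 and 6.01, and the only DR6 array with a usable spot read 5.97. All polluted sites were thus more than 1 log2 unit below SOL, and no difference between DR4 and DR6 was detectable (adjusted p = 0.789 by limma). The falls were 2.63-fold at PS, 2.25-fold at DR1, 3.42-fold at DR4 and 3.51-fold at DR6.

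At DR6, 2 of the 3 Gpd1 spots were marked as outliers by the extraction software and left out, and with them kept they read 5.91 and 5.94, close to the other array. The second Gpd1 probe spans chr15:99550573-99551260 on the plus strand and gave smaller differences from SOL, -0.52 at PS, -0.87 at DR1, -1.23 at DR4 and -0.73 at DR6. Its SOL arrays had an SD of 0.77. With both probes averaged the change at PS was -0.96 and was no longer called. With normexp the changes at DR1 and DR6 were -1.06 and -1.69, with adjusted p-values of 0.0778 and 0.116, and both calls were lost.

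Gpam encodes the mitochondrial glycerol-3-phosphate acyltransferase, which adds the first acyl chain to the backbone. Its probe lies at chr19:55124163-55124222, minus strand. It read -2.27, -2.59, -2.47 and -2.40 at SOL and -2.46, -2.61 and -2.45 at DR6, which overlapped. PS read -3.21, -3.24, -3.19 and -3.47, DR1 -3.41, -2.93, -2.92 and -3.41, and DR4 -3.31, -3.14, -3.20 and -3.23. SOL and DR6 lay above the other sites, and PS, DR1 and DR4 overlapped with each other. The changes at PS, DR1 and DR4 were -0.85, -0.73 and -0.78, each with an adjusted p under the threshold and short of 2-fold. At DR6 the change was -0.07, with a 95% interval from -0.33 to 0.18. With normexp the changes of Gpam were -0.15 at PS and -0.35 at DR1.

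Srebf1 encodes SREBP-1, and the probe, at chr11:60015907-60015966 on the minus strand, was not examined for which of its isoforms it reads. It read 3.35, 3.25, 3.17 and 2.93 at SOL, 3.02, 2.97, 2.94 and 2.86 at DR4, and 2.80, 2.79 and 2.72 at DR6. PS read 2.78, 2.78, 2.78 and 2.69, and DR1 was lowest with 2.46, 2.62, 2.34 and 2.56. The changes were small: -0.42 at PS, -0.68 at DR1, -0.23 at DR4 and -0.41 at DR6. All 4 had an adjusted p under the threshold, from 2.70e-06 to 0.0210 by limma, and none reached 2-fold. Fasn and Elovl6, known targets of SREBP-1c, spanned 1.82 and 1.46 log2 units between their highest and lowest site, where Srebf1 spanned 0.68.

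Thrsp encodes Spot 14, a small nuclear protein of lipogenic tissue that responds to thyroid hormone and carbohydrate. It read 4.37, 4.46, 4.44 and 4.55 at SOL and 3.31, 3.58 and 3.61 at DR6. DR4 read 2.82, 2.87, 2.85 and 2.92, DR1 read 2.47, 2.66, 2.63 and 2.72, and PS read 2.12, 2.18, 2.16 and 2.31. The sites fell in the same order as for Fasn, without overlap at any step, and each step had an adjusted p under the threshold. Thrsp was 4.81-fold lower at PS (-2.27 ± 0.073, SE, adjusted p = 5.01e-13 by limma), 3.57-fold lower at DR1 and 3.01-fold lower at DR4. At DR6 it was 1.94-fold lower (-0.96), just short of a call, and reached -1.04 when arrays were scaled by their median and -1.01 without DR6 replicate 3. Its changes at PS ranked 41 and at DR1 ranked 60 from the lowest of 16346 genes.

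The pairs of polluted sites showed where the members part from each other. Between PS and DR6, Scd1, Fasn and Thrsp were called lower at PS, by -4.56, -1.74 and -1.31, where 4.79% of all genes were called lower. Elovl6 (-0.997) and Acly (-0.98) lay at the limit there, and without PS replicate 4 both were called as well. Between DR4 and DR6, Scd1, Pklr and Elovl6 were called lower at DR4, by -4.27, -2.39 and -1.15, where 3.77% of genes were called lower. Between DR1 and DR6, Scd1 and Pklr were called lower at DR1, by -2.77 and -1.41, where 4.24% were. Thus DR6 had the higher level in each of these 8 calls.

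Between PS and DR4, Fasn was called lower at PS (-1.20) and Pklr higher (1.84), where 4.64% of genes were called lower and 4.32% higher. Fasn and Pklr therefore ranked these sites in opposite order. Between PS and DR1, Fasn (-1.01) and Scd1 (-1.78) were called lower at PS, where 3.72% were. The Fasn call sat at the limit and was lost at -0.93 under median scaling, at -0.95 under quantile scaling and without PS replicate 1 or 2 or DR1 replicate 3 or 4 (-0.99, -0.98, -0.99 and -0.93). Between DR1 and DR4, only Scd1 was called, higher at DR1 by 1.50, where 3.05% of genes were called higher. Pklr stood just under the limit there, 0.98 higher at DR1, and at 1.04, 1.11, 1.03 and 1.04 was called without DR1 replicate 1 or 3 or DR4 replicate 1 or 3. With normexp the calls of Fasn and Pklr between PS and DR4, of Thrsp between PS and DR6 and of Pklr in both comparisons with DR6 were lost.

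With the pool as the unit, the mean of the 4 polluted sites was compared with the single SOL pool, which is assumed to vary like the others. limma called 0 of the 16346 genes in that fit, where 665 genes (4.07%) had an unadjusted p under 0.05 and the smallest adjusted p was 0.998. Gpd1 (-1.54 ± 0.33, SE, unadjusted p = 0.00274 by limma) and Thrsp (-1.66 ± 0.48, unadjusted p = 0.0115) were the 2 members among these. Both were below SOL at 4 of 4 polluted sites. Scd1 averaged 0.78 above SOL, and -0.19 without DR6, the opposite sign.

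To see which genes had site profiles most like the members, each profile of 5 site means was centred on its own mean, and the root mean square difference to each of 10423 other named genes was taken. The 3 nearest to Fasn were Mvk (0.084 log2 units), Mvd (0.16) and Fdft1 (0.20). All 3 are enzymes of cholesterol synthesis: mevalonate kinase, mevalonate diphosphate decarboxylase and squalene synthase. Elovl5, another elongase of the liver, was second nearest to Elovl6 (0.16), after Wdr51b (0.098). Stard4, a cholesterol carrier, was second nearest to Thrsp (0.26). These are descriptions over 5 points that share arrays and slides, and near profiles are common for genes that vary little, such as Srebf1 and Ippk (0.046).

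Scd1 had no close partner: its nearest genes, Prap1, Atf3 and Bhlhb2, were 0.64, 0.71 and 0.75 away. Among the members, Scd1 was the farthest from each of the other 9, at 1.39 to 1.95. The nearest pairs of members were Acaca and Gpam (0.17) and Acly and Acaca (0.19). These distances were not scaled to the range of a gene, so a wide range alone makes them larger. Scd1 spanned 4.56 log2 units over the sites, where Acaca spanned 0.90 and Gpam 0.85.

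**Figure D4:**
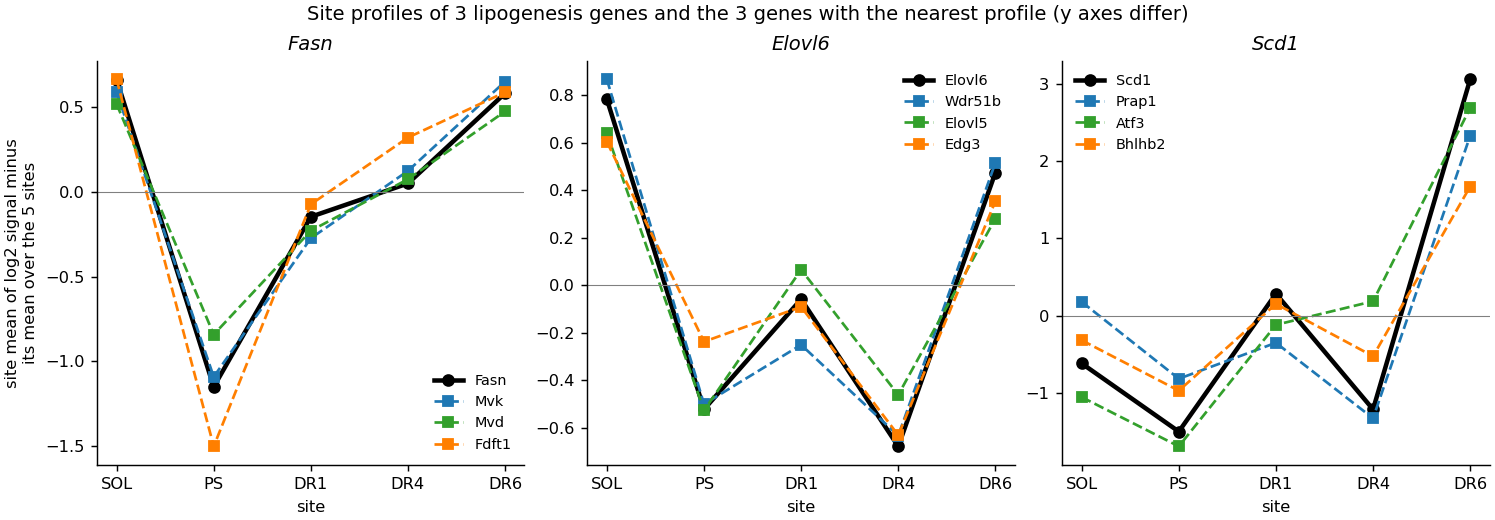
Site means of log2 signal, each minus its mean over the 5 sites (y axis, separate for each panel), for Fasn, Elovl6 and Scd1 (black) and the 3 named genes with the nearest profile (dashed). The genes near Fasn dip at PS and return to the SOL level at DR6, whereas Scd1 and its nearest genes peak at DR6.

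Other enzymes of fat synthesis did not move as a block. Of 27 such genes on a list, 26 were tested. At PS 6 were called lower and 1 higher, where 2.18% of all genes were called lower and 2.23% higher, with a median change of -0.24 beside -0.01 for all genes. The largest changes were those of Fads2 (-1.37) and Fads1 (-1.32), the desaturases of polyunsaturated fatty acids, Acsl5 (-1.18), an acyl-CoA synthetase, and Mogat1 (2.12), a monoacylglycerol acyltransferase. At DR1, 2 were called lower and 3 higher, where 2.55% and 3.53% of all genes were (median -0.20, all genes 0.01), led by Elovl3 (2.95), Mogat1 (2.56) and Lpin1 (1.67), a phosphatidate phosphatase, with Slc25a1 (-1.12), the mitochondrial citrate carrier, on the other side. At DR4, 3 were called lower and 3 higher, where 5.1% and 5.43% of all genes were (median -0.27, all genes -0.05): Elovl3 (2.82), Mogat1 (2.30) and Lpin1 (2.21) were higher, and Pnpla3 (-1.45), a lipid droplet lipase, led the lower genes. At DR6, 0 were called lower and 3 higher, where 2.28% and 4.67% of all genes were (median -0.02, all genes -0.0038), namely Elovl3 (3.50), Lpin1 (1.93) and Acacb (1.21), the mitochondrial carboxylase that curbs fatty acid oxidation. Elovl3, an elongase of very long chains, thus rose at the 3 stream sites by at least 2.82, while Elovl6 did not rise at any.

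Of 12 tested genes that bring sugar to pyruvate, 0 were called at PS (median -0.19). Eno1, enolase, was lower at DR1 (-1.38) and DR4 (-1.41), and Slc2a2, the glucose transporter of hepatocytes, was lower at DR4 (-1.42) and DR6 (-1.39). These 1, 2 and 1 genes called lower at DR1, DR4 and DR6 stand beside 2.55%, 5.1% and 2.28% of all genes, and the list's medians were -0.41, -0.61 and -0.20. Of 22 tested regulators, 0 were called lower and 1 higher at PS, 0 at DR1, 1 lower and 3 higher at DR4, and 0 lower and 1 higher at DR6. These counts are small, and 1 of 22 is near the share of all genes called at these sites (2.23% higher at PS, 5.1% lower and 5.43% higher at DR4, 4.67% higher at DR6), so they are given as values only. At PS the gene was Nr0b2 (1.10), a repressive nuclear receptor. At DR4, Mlxipl (-1.25), which encodes ChREBP, was lower, and Mbtps2 (1.44), a protease that releases SREBP, Prkaa1 (1.01), a subunit of AMPK, and Insig1 (1.00), which retains SREBP, were higher. Prkaa1 was also higher at DR6 (1.04), where Mlxipl changed by -0.98 and was not called.

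Of 10 tested genes of lipid droplets and lipoprotein export, 1 was called lower at PS, Apob (-1.98), the protein of VLDL. There 2.18% of all genes were called lower, and the list's median was -0.23, beside -0.01 for all genes. At DR1 Cidec (-1.40) and Cideb (-1.07), droplet proteins, were called lower, where 2.55% of all genes were (median -0.36, all genes 0.01). At DR4, 4 were lower, where 5.1% of all genes were called lower (median -0.84, all genes -0.05): Cideb (-1.74), Cidec (-1.71), Adfp (-1.66), which coats droplets, and Mgll (-1.10), a lipase. None of the 10 was called at DR6, where the median was 0.03.

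**Figure D5:**
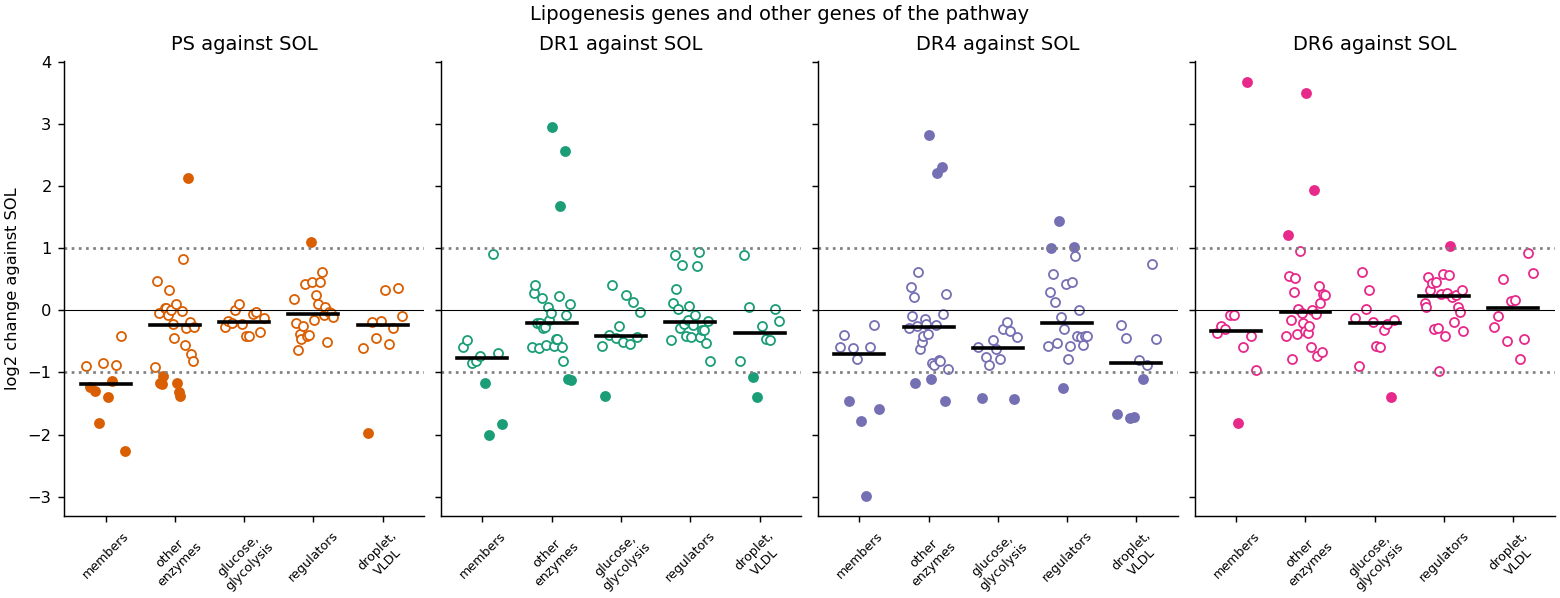
Log2 change against SOL (y axis) of every tested gene of 5 lists at each polluted site; filled circles were called, black bars are medians, and dotted lines mark a 2-fold change. The 10 members have the lowest median of the lists at PS (-1.19), DR1 (-0.77) and DR6 (-0.33). At DR4 the droplet and VLDL list lies lower (-0.84, members -0.70).

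Markers of other cell types were set beside these results. The 7 hepatocyte markers with a probe were called at no polluted site, and their summed signal, relative to the 75th percentile, ran from 920 to 1033 over the arrays of SOL, PS, DR1 and DR4 and from 1175 to 1263 at DR6, without overlap. The markers did not move together. From SOL to DR6, the means of Tat (7.19 to 8.09), Cps1 (6.62 to 7.44), Apoc3 (6.49 to 6.84) and Cyp2e1 (7.38 to 7.74) rose. Those of Apoa1 (8.21 to 8.16), Asgr1 (7.18 to 7.11) and Ttr (0.55 to 0.05) fell. DR6 is also where Scd1 was highest, and the part of the higher sum in the members' values was not tested. The 11 markers of exocrine pancreas, an organ close to the liver, moved between sites: their sum was 1376 to 1501 at SOL, 334 to 337 at PS, 800 to 843 at DR1, 182 to 185 at DR4 and 1695 to 1780 at DR6. All 11 were called lower at PS and at DR4, 3 at DR1 and 0 at DR6. The order was DR6 above SOL, DR1, PS and DR4, and no member had exactly this order. Elovl6 differed from it only in SOL standing above DR6, and Pklr was also lowest at DR4, while 6 members were lowest at PS. The part of the pancreas signal in the members' values was not tested. Of 10 adipocyte markers, 4 (Lep, Plin, Retn and Adrb3) did not pass the filter, and the sum of the other 6 was 17.4 to 22.4 at SOL and 21.3 to 32.7 at the polluted sites, with 1 called higher at DR1 and 1 at DR6. The 9 macrophage and Kupffer cell markers summed to 127 to 147 at SOL, 111 to 117 at PS and 107 to 118 at DR1. They summed to 62.8 to 69.0 at DR4 and 54.0 to 57.4 at DR6. These sums lean on the brightest marker, Marco (mean 6.30 at SOL). The median changes of the 9 were 0.11 at PS, -0.03 at DR1, -0.58 at DR4 and -0.40 at DR6. In that order of sites 1, 1, 3 and 1 were called lower, and 0 were called higher. Their part in the members' values was not tested. Of 8 lymphocyte markers, 1 each was called higher at PS, DR1 and DR6, and of 8 stellate cell markers 3 were called higher at DR1 and 2 at DR6. Beside these marker counts, 2.18%, 2.55%, 5.1% and 2.28% of all genes were called lower at PS, DR1, DR4 and DR6. The shares called higher were 2.23%, 3.53%, 5.43% and 4.67%. Counts of 1 among so few markers are given as values only.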

How the data were processed

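The deposited scanner files hold linear intensity per spot. Per the submitters' processing notes the authors used Agilent Feature Extraction 9.5.3.1, and per the file headers the processed signal is background-subtracted. The deposited flags give well above background, saturated, outlier and control spots as 0 or 1. The DR1 slide carries an older design file, so gene names and mm8 positions come from the SOL files by probe name.

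From these values, the log2 processed signal minus the array's 75th percentile over gene spots was taken, with outlier spots missing. The summed marker signals were instead taken with outlier spots kept. A probe was kept if 3 arrays of 1 site or more had it well above background, and the brightest kept probe stands for a gene. limma 3.58.1 in R 4.3.3 was fitted to all 19 arrays with a mean per site. The 10 pairs of sites were compared two-sided, with Benjamini-Hochberg adjustment over 16346 genes, and in a second fit the 5 site means were the units. The procedure was tested on simulated data. Alternatives covered scaling, background, filter, probe choice, outlier spots and the deposited series table of intensity. They also covered a replicate block, a fit on the compared sites alone and each array left out. The background alternative was normexp with an offset of 50 added to each signal.

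All 10 members were named. From the lists, up to 4 called genes per comparison were named, largest change first, and for likeness genes were taken from the 3 nearest to each member with a symbol and a signal above background on every array, of which the text gives some. The members and the lists were chosen with earlier results of these data known. No genome or promoter sequence was used here, and 1 of the nearest genes is not reported here.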

Additional observations from a re-analysis of the deposited data

Results flagged for a closer look

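Among 40 sets of 4 arrays (10 genes at 4 sites), an array stood far from its 3 companions in 4, where chance alone gives about 1 in 20. They were Acaca on DR4 replicate 2 (-3.22, nearest -3.86), and Srebf1 (2.69, nearest 2.78), Gpd1 (6.33, nearest 6.40) and Gpam (-3.47, nearest -3.24) on PS replicate 4. In the 3 PS cases the gap was small on the log2 scale, and no call against SOL was lost without that array.

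Scd1 moved in opposite directions from SOL at different sites. The difference between the polluted sites, tested by limma, was -1.78 for PS minus DR1, 1.50 for DR1 minus DR4, -4.56 for PS minus DR6 and -4.27 for DR4 minus DR6, with adjusted p-values of 2.97e-12, 1.93e-11, 2.65e-17 and 4.53e-17.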

How the results depend on the processing

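Of 990 member changes under settings other than leaving out an array, 945 kept their direction and side of the threshold, 13 lost a call, 11 gained one and 21 changed sign. None of the 21 had been called, and the largest was 0.52. The background correction, which includes an added offset of 50, moved most. Members called for PS against SOL went from 6 to 4 with normexp, and for DR4 minus DR6 from 3 to 2. For DR1 against SOL they went from 3 lower to 2 lower and 1 higher. With normexp, members called were 1 for DR6 against SOL, 0 for PS minus DR4, 2 for DR1 minus DR4 and 1 for DR1 minus DR6, and the signs that turned were Acaca DR4 minus SOL 0.10, Gpam DR4 minus SOL 0.037, Gpam DR6 minus SOL 0.018, Acaca PS minus DR1 0.28, Gpam PS minus DR1 0.20, Srebf1 PS minus DR4 0.11, Fasn DR1 minus DR4 0.52, Pklr DR1 minus DR4 -0.17, Gpam DR1 minus DR4 -0.39, Acaca DR4 minus DR6 0.15, Srebf1 DR4 minus DR6 -0.12, Gpd1 DR4 minus DR6 -0.34 and Gpam DR4 minus DR6 0.019. Over all genes, normexp called 153, 257, 768 and 225 at PS, DR1, DR4 and DR6 against SOL, where 722, 994, 1722 and 1136 were called before. It called 247, 519, 260, 506, 273 and 300 for PS minus DR1, DR4 and DR6, DR1 minus DR4 and DR6, and DR4 minus DR6, where 1039, 1464, 1194, 841, 1226 and 1007 were. A filter for signal on all arrays tests fewer genes and called 390, 551 and 661 at PS, DR1 and DR6 against SOL and 583, 908, 664, 446, 693 and 603 in those pairs. Members called were 1 for PS minus DR1 under median and under quantile scaling, and 2 for DR1 minus DR4 under quantile scaling and with probes averaged. Averaging probes also gave 5 for PS and 4 for DR1 against SOL, 4 for PS minus DR6 and 3 for DR1 minus DR6. Signs turned for Gpam PS minus DR4 (0.012 under both scalings), Srebf1 PS minus DR6 (0.16 under median scaling), and, with probes averaged, Acaca DR6 minus SOL 0.13, Acaca PS minus DR1 0.16, Gpd1 PS minus DR1 0.062 and Gpd1 DR4 minus DR6 -0.11. The cause of these changes was not tested.

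The replicate number as a block left every count of members called as it was and turned 1 sign, Srebf1 PS minus DR6 (0.015). Same-numbered arrays were at most weakly alike: over 36 such pairs, the correlation of deviations ran from -0.16 to 0.48, median 0.09. It was over 0.1 in 16 of these pairs, and the median for arrays of other numbers was -0.03. Leaving out single arrays gave 1 to 3 members called for DR6 against SOL, 1 to 2 for PS minus DR1, 3 to 5 for PS minus DR6 and 1 to 2 for DR1 minus DR4. The 1 at DR6 is without DR6 replicate 1, the only array with a Gpd1 spot. The 9 sign changes, none of a called value, gave ranges of -0.092 to 0.0030 for Gpam PS minus DR4, -0.037 to 0.0087 for Srebf1 PS minus DR6, -0.14 to 0.16 for Acaca DR1 minus DR4, -0.033 to 0.13 for Gpam DR1 minus DR4, -0.55 to 0.091 for Acaca DR1 minus DR6 and -0.55 to 0.098 for Acaca DR4 minus DR6. With sites as units, Scd1 was -0.19 without DR6 and 0.78 with it.

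Under median scaling the share of higher genes among the called went from 41.5% to 51.6% for PS minus DR1, 34.4% to 52.6% for PS minus DR6, 43.5% to 55.4% for DR1 minus DR6 and 38.7% to 49.2% for DR4 minus DR6, and the median of all genes moved to 0.12 for PS minus DR4 and 0.18 for PS minus DR6. Precision is bounded by how few arrays each site had, and the standard errors against SOL were widest for Acaca (0.28 at PS), well above background on 13 of 19 arrays, and Pklr (0.16).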

Other observations

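The genes with site profiles nearest to Fasn and Scd1 were not members, and their levels, on the same log2 scale and as means with SD over the arrays of a site, were as follows. Mvk was 1.83 ± 0.16 at SOL and 1.89 ± 0.12 at DR6, with 1.36 ± 0.11 at DR4, 0.97 ± 0.13 at DR1 and 0.15 ± 0.09 at PS. Fdft1 was 3.74 ± 0.11 at SOL, 3.67 ± 0.08 at DR6 and 1.57 ± 0.05 at PS. Both had SOL and DR6 within 0.1 of each other and PS far below, as Fasn did. They were picked for a profile near that of Fasn, so this likeness is not a separate result. Prap1, the nearest to Scd1, was -2.53 ± 0.11 at SOL, -3.52 ± 0.06 at PS, -3.06 ± 0.14 at DR1, -4.03 ± 0.23 at DR4 and -0.38 ± 0.15 at DR6, so it was highest at DR6, as Scd1 was, but lowest at DR4. Atf3, a stress-induced transcription factor, was -0.52 ± 0.08 at SOL, -1.16 ± 0.02 at PS and 3.23 ± 0.04 at DR6. Bhlhb2, a transcription factor of the circadian clock, was 1.83 ± 0.18 at SOL, 1.17 ± 0.10 at PS and 3.82 ± 0.03 at DR6. Atf3 and Bhlhb2, likewise picked for profiles near that of Scd1, were lowest at PS and highest at DR6, as Scd1 was (SD, n = 4 arrays per site, 3 at DR6). At DR4, Atf3 (0.72 ± 0.04) lay above SOL and Scd1 below it.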
